A study of Mus musculus with 6 samples.

Results

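Long noncoding RNAs are long transcripts with no known protein product. Some build nuclear bodies or hold RNA-binding proteins, some are the precursors from which small nucleolar RNAs (snoRNAs, which guide the chemical modification of ribosomal RNA) or microRNAs are cut, and some act on a gene beside them. The RNAs described here are the 132 genes that the deposited table lists as lncRNA and that had a mean of 3 FPKM or more over the 6 libraries. FPKM is the number of reads of a gene scaled by its exon length and by the library's total. These RNAs are 3.38% of the 3911 lncRNA genes in a table of 25416 genes. The rule also leaves out 7 imprinted transcripts by name, but those of them that the table lists as lncRNA stood below the threshold, the highest being Airn with a mean of 2.45 FPKM, so that 0 genes were lost in this way. The RNAs were selected on this mean level, which is given only as a description. The rule does not use the difference between the groups, but it was set with earlier results of these data known.

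The libraries came from AML12, a line of mouse hepatocytes that carry a transgene for human TGF alpha. In 3 libraries (siSetdb1) the cells had been transfected with a small interfering RNA against Setdb1, the gene of an enzyme that methylates lysine 9 of histone H3 at silenced chromatin, and in 3 others (siNC) with a scrambled RNA. RNA was taken after 72 h and selected for poly(A) tails, so that transcripts without a tail are poorly covered, and no label says whether replicate libraries came from cultures grown separately. The p-values therefore measure the spread between these libraries, which may be technical. The single question of the design is which transcripts differ when Setdb1 mRNA is reduced.

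The libraries held 16790582 to 17835060 reads, and the 132 RNAs took 0.309% to 0.370% of them. Setdb1 itself had 4.29, 4.21 and 3.29 FPKM in the siSetdb1 libraries, against 8.41, 8.54 and 9.43 FPKM in the siNC libraries, a difference of -0.995 on the log2(FPKM + 1) scale (adjusted p = 0.00183, limma). On the first 2 principal components siNC replicate 1 stood apart from the other siNC libraries. It had -26.7 on the first component against -11.7 and -10.8, and 14.98 on the second against -10.7 and -14.0. Krt18, a keratin on the hepatocyte list, averaged 2012 FPKM in siSetdb1 and 1633 FPKM in siNC. Albumin (Alb) was at 1.45 to 4.50 FPKM in siSetdb1 and 4.05 to 14.3 FPKM in siNC, and Serpina1a was near 0. The label of hepatocyte therefore does not rest on these secreted products. Of the 8 hepatocyte markers tested, Krt18 rose (in 5 of 12 alternative settings), Trf and Ttr fell and 5 did not pass, with a median log2 fold change of -0.72. Of the cholangiocyte markers in the table, Krt7 and Sox9 passed the test as higher and Krt19 did not pass. Summed, these 3 cholangiocyte genes reached 1496 to 1666 FPKM in siSetdb1 and 1355 to 1618 FPKM in siNC. The 9 hepatocyte genes found, Krt18 included, summed to 3364 to 3482 FPKM in siSetdb1 and 2834 to 3237 FPKM in siNC. Summed over the markers found in the table, 3 stellate cell and fibroblast genes reached 0.840 to 1.22 FPKM in siSetdb1 and 0.618 to 0.639 FPKM in siNC, 4 endothelial genes reached 0.118 to 0.193 FPKM in siSetdb1 and 0.0431 to 0.0840 FPKM in siNC, and 2 lymphocyte genes stayed at 0.0523 FPKM or less. Of 2 macrophage genes found, Csf1r was near 0 and Cd68, which other cells also express, was lower in siSetdb1. The part of these markers in the results was not tested.

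Some sequences at the starts of these RNAs are shown first, as a description only. RefSeq (GRCm38.p6) holds a promoter window, 250 bases before to 50 bases after the annotated start, for 79 of the 132 genes by symbol. Among the 14 RNAs that passed the test as higher, 11 have such a window, and 5 of these windows contain TGANTCA, the element that Fos and Jun dimers (AP-1) are known to bind, on either strand. The motif stands below in capitals with 20 bases on each side, read 5′ to 3′ along the strand of the RNA.
Gm6093: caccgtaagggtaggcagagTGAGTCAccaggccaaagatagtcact
Mirt1: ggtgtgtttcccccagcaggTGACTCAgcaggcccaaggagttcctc
Gm11714: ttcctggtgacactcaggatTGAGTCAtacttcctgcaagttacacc
4930471E19Rik: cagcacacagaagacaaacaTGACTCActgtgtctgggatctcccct
Morrbid: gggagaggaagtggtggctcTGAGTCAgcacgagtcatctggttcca

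Those stretches lie at chr13:33569439-33569485 for Gm6093, chr19:53464910-53464956 for Mirt1, chr11:107428159-107428205 for Gm11714, chr10:120636296-120636342 for 4930471E19Rik and chr2:128429326-128429372 for Morrbid, on the minus strand except for Gm11714, which is on the plus strand. Relative to the annotated start, the first base of the motif is at -148 in Gm6093, -140 in Mirt1, -71 in Gm11714, -215 in 4930471E19Rik and -1 in Morrbid. For Morrbid and 4930471E19Rik the RefSeq start lies inside the longer GENCODE span, so that other starts of these genes were not looked at. The whole window of Gm6093, the RNA with the highest fold change, is at chr13:33569268-33569567 on the minus strand.
Gm6093 promoter: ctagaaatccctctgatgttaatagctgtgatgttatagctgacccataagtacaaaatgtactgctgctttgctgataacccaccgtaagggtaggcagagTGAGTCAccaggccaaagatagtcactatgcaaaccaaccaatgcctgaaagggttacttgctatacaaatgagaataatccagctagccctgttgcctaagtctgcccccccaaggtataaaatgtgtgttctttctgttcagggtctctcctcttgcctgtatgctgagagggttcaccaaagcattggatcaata

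The motifs were chosen after the values had been seen, and a match is a description of letters, not of binding. TGANTCA was present in 5 of 11 windows of the RNAs that passed as higher, 0 of 5 of those that passed as lower and 7 of 63 of those that did not pass, and in 7.81% of all 32851 promoter windows. Among all genes tested it was in 12% of 626 windows of higher genes, 7% of 757 windows of lower genes and 5.83% of 7445 windows of the rest. The EGR element GCGNGGGCG, the cyclic AMP element TGACGTCA and the serum response element (CArG box) were in 0 of the 11 windows of RNAs that passed as higher and 0 of the 5 of those that passed as lower. Of the 63 windows of RNAs that did not pass, the EGR element was in 4, the cyclic AMP element in 4 and the CArG box in 0. Over all windows their shares were 5.55%, 1.79% and 1.63%, and among all genes tested the EGR element was in 13.7% of windows of higher genes, 11.8% of lower genes and 12.3% of the rest. The mRNAs of the AP-1 subunits Fos, Junb and Jun passed as higher, with log2 fold changes of 1.66, 0.69 and 0.47 (adjusted p = 0.000149, 0.00929 and 0.0414, limma). The call of Jun held in 6 of 12 alternative settings, and Fosl1, another AP-1 subunit, did not pass (log2 fold change 0.33, adjusted p = 0.120). Egr1, whose product binds the EGR element, passed with a log2 fold change of 3.39 (adjusted p = 0.000139). What these factors did at the promoters was not measured.

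After Setdb1 knockdown the share of long noncoding RNAs that passed the test was near that of all genes. Calls went in both directions and were mostly of less than 2-fold. Of the 132, which were all tested, 14 rose and 10 fell, 24 in all or 18.2%, and 108 did not pass. Over all 12846 genes tested 15.1% passed, 6.87% as higher and 8.27% as lower, so that the share among these RNAs was near that background. By limma 53 of the 132 had an unadjusted p under 0.05, against 4141 of all genes tested. An RNA that did not pass is therefore not shown to be unchanged. Calls of at least 2-fold on the log2(FPKM + 1) scale, which 0.763% of all genes tested had, were seen in 1 of the 132, Gm6093. By the ratio of group means without the added 1, Gm4610 (2.03) and Gm6712 (2.13) were also above 2. The 132 had a median log2 fold change of -0.03, against -0.02 for all genes tested. Each log2 fold change is siSetdb1 minus siNC in mean log2(FPKM + 1), a scale on which low genes appear to change less than they do, with standard errors and Benjamini-Hochberg adjusted p-values from limma. The values of the 2 groups did not overlap for 53 of the 132, 28 with siSetdb1 above and 25 with siSetdb1 below, against 39.2% of all genes tested (17.6% above and 21.6% below). Leaving out 1 library left 13 to 25 RNAs past the test, with 13 (9 higher and 4 lower) without siSetdb1 replicate 2, 15 (10 and 5) without siSetdb1 replicate 1 and 16 (10 and 6) without siNC replicate 2.

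**Figure D1:**
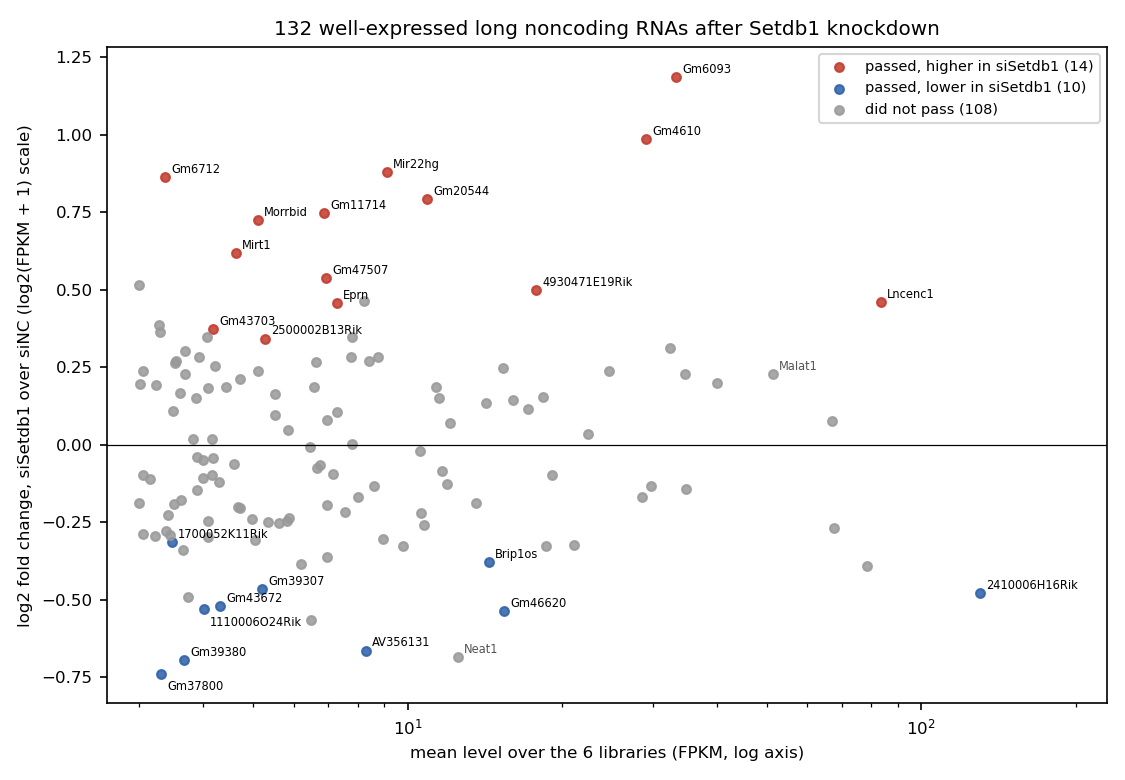
Log2 fold change (siSetdb1 over siNC, log2(FPKM + 1) scale) against the mean FPKM over 6 libraries (log axis) for each of the 132 long noncoding RNAs; red points passed as higher (14), blue points passed as lower (10), grey points did not pass (108). The RNAs that passed lie between 3.32 and 130.0 FPKM in mean level, and Gm6093 is the single point above 1.

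Summed over the 132 RNAs the level was 1576 to 1608 FPKM in the siSetdb1 libraries and 1536 to 1634 FPKM in the siNC libraries, so that the total did not separate the groups. Single RNAs ranged in mean level between 3.00 and 130.0 FPKM with a median of 6.03, and 38 stood at 10 FPKM or more. Their summed exon length had a median of 1169 bases (192 to 20771), against 4478.5 bases for the protein-coding genes tested, and 27 consist of 1 stretch of exon. The least covered library of an RNA held a median of 126 reads and, for Gm39380, as few as 6. Replicates were less alike than for other genes, with a median SD on the log2(FPKM + 1) scale of 0.13 in siSetdb1 and 0.17 in siNC, against 0.085 and 0.13 over all genes tested. Longer RNAs tended to have higher fold changes, with a Spearman correlation across the 132 genes of 0.21, as across all genes tested (0.21). Points share the same 6 libraries.

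By GENCODE type, 9 of 72 intergenic RNAs rose and 5 fell, 1 of 21 antisense RNAs rose and 2 fell, 4 of 28 processed transcripts rose and 1 fell, and 0 of 8 RNAs from bidirectional promoters rose and 2 fell. The rest are 2 RNAs of the type sense intronic and 1 gene, Gm21887, and 0 of them passed. GENCODE lists Gm21887 as protein-coding, although the deposited table lists it as lncRNA. Of the 49 RNAs with no protein-coding gene within 5 kb, 8 rose and 2 fell, and of the other 83, 6 rose and 8 fell. Over all genes tested 6.87% rose and 8.27% fell, and differences between these types and settings were not tested. The 18 RNAs with 1 group mean below 3 FPKM, which entered through their other group, hold 4 of the calls (1 higher and 3 lower), and the remaining 114 hold 13 higher and 7 lower.

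Gm6093 (ENSMUSG00000112963, chromosome 13, 33562486 to 33569317, minus strand of mm10), an intergenic RNA of 4 exon stretches with no described role used here, rose most. It had 47.8, 53.3 and 38.8 FPKM in siSetdb1 libraries, against 18.5, 17.2 and 24.1 FPKM in siNC libraries, with 1023 to 3102 reads behind each value. The groups do not overlap, and the lowest siSetdb1 value is well above the highest siNC value. Its log2 fold change was 1.19 (SE 0.15, adjusted p = 0.00431), and no protein-coding gene lies within 5 kb. Gm4610 (ENSMUSG00000104554, chromosome 3, 122377097 to 122391811, minus strand), an antisense RNA within the span of Bcar3, was the tightest of the large changes. It had 38.8, 38.4 and 39.7 FPKM in siSetdb1 libraries and 20.3, 17.5 and 19.8 FPKM in siNC libraries (log2 fold change 0.99, SE 0.07, adjusted p = 0.000927).

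Mir22hg (ENSMUSG00000085148, chromosome 11, 75461539 to 75466676, plus strand), the precursor that holds the miR-22 hairpin, also rose. It had 12.5, 11.8 and 11.9 FPKM in siSetdb1 libraries and 5.05, 5.64 and 7.87 FPKM in siNC libraries, so that the groups stay apart while siNC replicate 3 lies nearest to the knockdown. The log2 fold change was 0.88 (SE 0.14, adjusted p = 0.00737). RefSeq gives the mature strands of this host, each with its seed (bases 2 to 8) in capitals. They lie at chr11:75463734-75463755 and chr11:75463772-75463793 on the plus strand and share no seed. Mature microRNAs are too short for these libraries, so their levels are not known from the host.
mmu-miR-22-5p: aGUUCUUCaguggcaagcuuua
mmu-miR-22-3p: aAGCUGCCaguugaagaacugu

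Several RNAs named for a role elsewhere were among those that rose. Morrbid (ENSMUSG00000074813, chromosome 2, 128178319 to 128502765), known in mouse myeloid cells as a repressor of the neighbouring cell-death gene Bcl2l11, had 6.36, 7.30 and 6.20 FPKM in siSetdb1 libraries and 3.70, 3.73 and 3.39 FPKM in siNC libraries (log2 fold change 0.72, SE 0.08, adjusted p = 0.00259). Mirt1 (chromosome 19), named for myocardial infarction, had 5.47, 6.51 and 5.47 FPKM in siSetdb1 libraries and 3.43, 2.88 and 4.05 FPKM in siNC libraries. In both RNAs every siSetdb1 library is above every siNC library. The log2 fold change of Mirt1 was 0.62 (SE 0.11, adjusted p = 0.0139), and without siSetdb1 replicate 2 its adjusted p was 0.0581.

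Lncenc1 (chromosome 13, 97434970 to 97497007), a transcript known from naive mouse embryonic stem cells, was the second most abundant of the 132. It had 96.4, 95.5 and 98.3 FPKM in siSetdb1 libraries and 70.2, 68.5 and 71.4 FPKM in siNC libraries, with 3891 reads or more in each. Replicates differ little beside the gap between the groups, and the log2 fold change was 0.46 (SE 0.06, adjusted p = 0.00400). Eprn, or ephemeron, which acts when mouse embryonic stem cells leave the naive state, had 8.33, 9.06 and 8.33 FPKM in siSetdb1 libraries and 5.43, 5.54 and 7.04 FPKM in siNC libraries (log2 fold change 0.46, adjusted p = 0.0249). Its call ended when any siSetdb1 library or siNC replicate 2 was left out (adjusted p 0.0613 to 0.0943). Eprn, Gm43703 and 2500002B13Rik are outside the rule for named genes and were added after their values were seen.

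The other RNAs that rose have no role that is described here. Gm20544 (chromosome 18, 75365332 to 75367088) had 15.1, 15.6 and 11.7 FPKM in siSetdb1 libraries and 6.99, 8.99 and 7.17 FPKM in siNC libraries (log2 fold change 0.79, SE 0.13, adjusted p = 0.00909). Gm11714 (chromosome 11) had 7.93, 9.29 and 9.41 FPKM in siSetdb1 libraries and 4.56, 5.51 and 4.59 FPKM in siNC libraries (log2 fold change 0.75, adjusted p = 0.00418). Neither RNA has overlapping groups. Gm47507 (chromosome 13) averaged 8.41 ± 0.97 FPKM in siSetdb1 and 5.47 ± 0.45 FPKM in siNC (SD, n = 3 each), with a log2 fold change of 0.54. For 4930471E19Rik (chromosome 10) the means were 21 ± 0.97 FPKM in siSetdb1 and 14.6 ± 1.1 FPKM in siNC, with a log2 fold change of 0.50. Their adjusted p-values from limma were 0.0121 and 0.00726.

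Calls of the remaining RNAs that rose were less secure. Gm6712, on chromosome 17, rests on 11 to 55 reads, and 19.1% of its 50-base windows, the length of a read, also occur in transcripts of other genes elsewhere, among them the long noncoding Gm5165 and BC002059. RefSeq lists Gm6712 as protein-coding. It had 4.39, 5.42 and 3.96 FPKM in siSetdb1 libraries and 1.10, 2.71 and 2.65 FPKM in siNC libraries (log2 fold change 0.86, SE 0.22, adjusted p = 0.0430), with siNC replicate 1 the lowest. Leaving out any library except siNC replicate 1 ended this call (adjusted p 0.0526 to 0.139). Gm43703 (log2 fold change 0.37, adjusted p = 0.0485) lost its call without siSetdb1 replicate 1 or 2 or siNC replicate 2 or 3 (0.0980 to 0.155). Likewise 2500002B13Rik, with a log2 fold change of 0.34 (adjusted p = 0.0158), lost its call when any siSetdb1 library or siNC replicate 2 was left out (0.0504 to 0.0733).

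**Figure D2:**
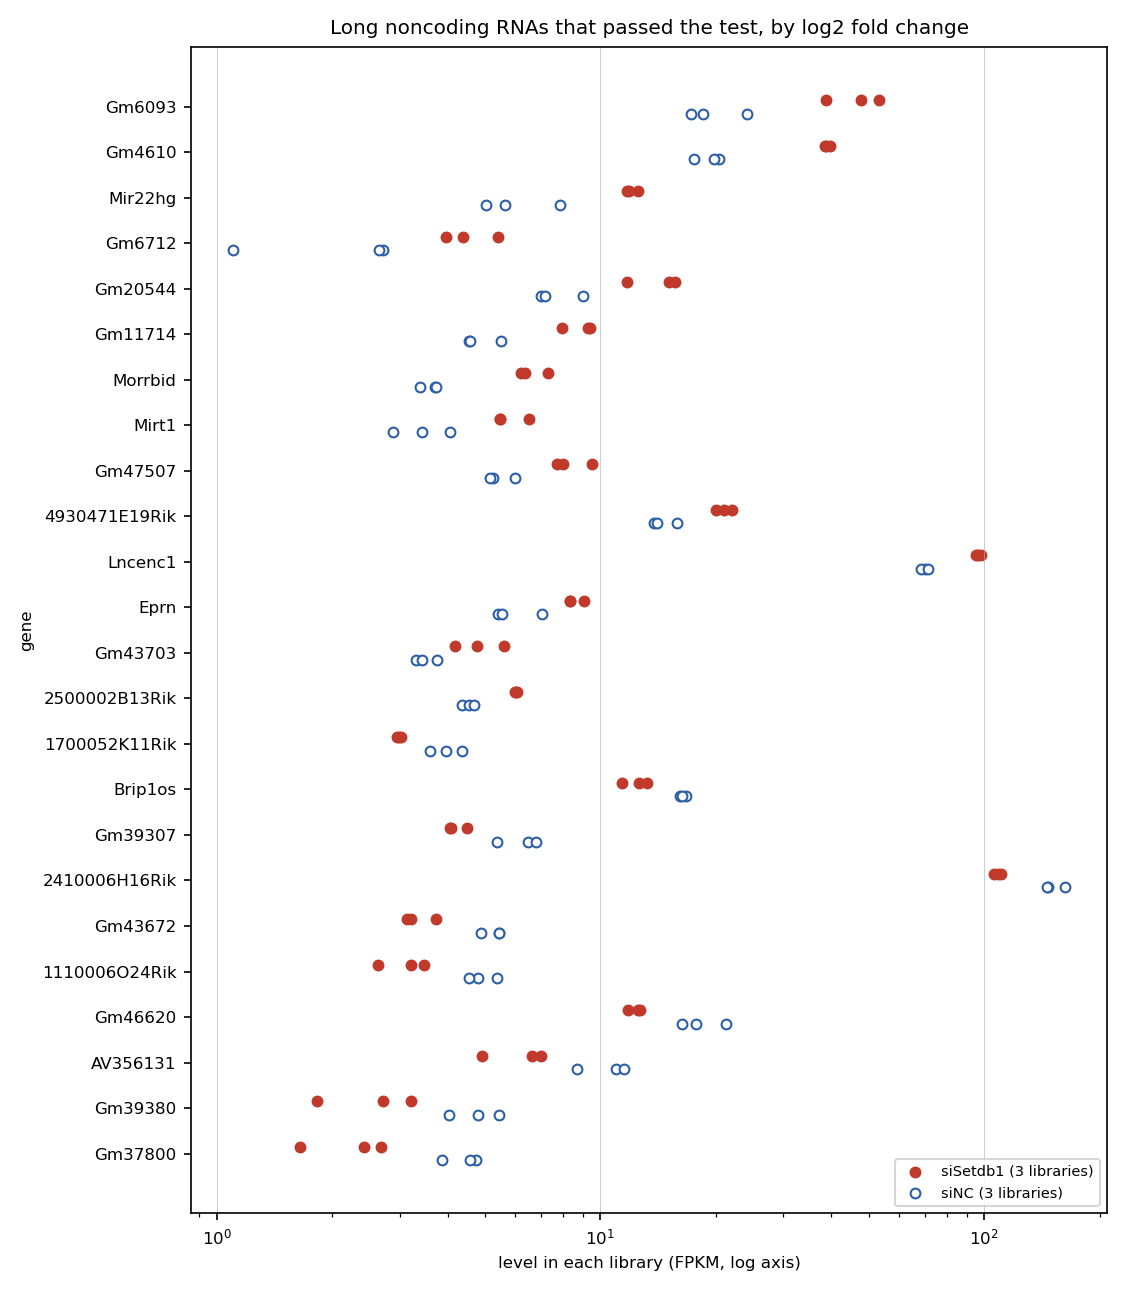
Level in each library (FPKM, log axis) of the 24 long noncoding RNAs that passed the test, ordered by log2 fold change; filled red points are the 3 siSetdb1 libraries and open blue points below them the 3 siNC libraries. The groups do not overlap for any of the 24, which were picked by a test on these same values, so that this adds no support. Over all genes tested the groups did not overlap in 39.2%. The siNC value of Gm6712 at 1.10 FPKM is replicate 1.

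Among the RNAs that fell, the most abundant of all 132 stands out in level. 2410006H16Rik (ENSMUSG00000086841, chromosome 11, 62602877 to 62604807, plus strand) holds Snord49b, Snord49a and Snord65, box C/D snoRNAs that guide ribosomal RNA methylation. It had 106, 109 and 111 FPKM in siSetdb1 libraries and 163, 146 and 146 FPKM in siNC libraries, with no overlap. The log2 fold change was -0.48 (SE 0.07, adjusted p = 0.00614), a fall by 28.5% of the mean. It shared 0 of its windows with any other gene.

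Several other RNAs that fell lay near the level threshold, while AV356131 and Gm46620, described after them, were more abundant. Gm37800 (chromosome 1, 184610280 to 184629473) had 2.68, 1.65 and 2.42 FPKM in siSetdb1 libraries and 4.73, 4.56 and 3.86 FPKM in siNC libraries (log2 fold change -0.74, SE 0.14, adjusted p = 0.0135), on 28 to 79 reads. Gm39380, the shortest of the 132 with 192 exon bases, had 2.71, 1.83 and 3.21 FPKM in siSetdb1 libraries and 4.03, 4.79 and 5.46 FPKM in siNC libraries. With 6 to 18 reads per library its log2 fold change of -0.70 (adjusted p = 0.0289) was lost in limma-voom on reads (0.117) and without siSetdb1 replicate 1 or 2 or siNC replicate 2 or 3 (0.0670 to 0.0830). Gm43672 (chromosome 3) averaged 3.36 ± 0.32 FPKM in siSetdb1 and 5.25 ± 0.32 FPKM in siNC (log2 fold change -0.52, adjusted p = 0.00870).

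AV356131 (chromosome 7), one of the RNAs from bidirectional promoters, had 7.02, 4.92 and 6.65 FPKM in siSetdb1 libraries and 11.0, 11.5 and 8.69 FPKM in siNC libraries. These groups do not overlap, and the log2 fold change was -0.66 (SE 0.14, adjusted p = 0.0232). Its call ended without siSetdb1 replicate 2, siNC replicate 1 or siNC replicate 2 (0.0519 to 0.0708). Another of this type, Gm39307 on chromosome 9, averaged 4.21 ± 0.24 FPKM in siSetdb1 and 6.22 ± 0.75 FPKM in siNC (log2 fold change -0.47, adjusted p = 0.0190). It lost its call without siSetdb1 replicate 1 or 2 or siNC replicate 3 (0.0508 to 0.0796). For 1110006O24Rik (chromosome 5) the means were 3.10 ± 0.43 FPKM in siSetdb1 and 4.91 ± 0.43 FPKM in siNC (log2 fold change -0.53, adjusted p = 0.0155), and the call ended without siSetdb1 replicate 2 or siNC replicate 2 (0.0543 and 0.0526).

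For the antisense RNAs that fell, reads over the windows shared with a gene on the other strand cannot be told from those of that gene, because no step that marks strand is named. Brip1os (chromosome 11, 86201370 to 86304443) had 12.6, 13.2 and 11.4 FPKM in siSetdb1 libraries and 16.2, 16.7 and 16.3 FPKM in siNC libraries (log2 fold change -0.38, SE 0.07, adjusted p = 0.0168). Of its windows 9.52% lie in Med13 and 7.18% in Ints2, and these coding genes, with log2 fold changes of 0.36 and 0.30, did not pass. Without siSetdb1 replicate 1 or 3 or siNC replicate 2 its call ended (0.0567 to 0.0651). 1700052K11Rik, which shares 17.2% of its windows with the kinase gene Tlk2 on the other strand, averaged 2.98 ± 0.033 FPKM in siSetdb1 and 3.97 ± 0.38 FPKM in siNC (log2 fold change -0.32, adjusted p = 0.0410). It kept its call only without siNC replicate 3 (0.0547 to 0.134 in the other leave-outs).

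Gm46620 on chromosome 18, the last of the RNAs that fell, had 11.8, 12.7 and 12.5 FPKM in siSetdb1 libraries and 21.3, 17.8 and 16.3 FPKM in siNC libraries (log2 fold change -0.54, SE 0.10, adjusted p = 0.0145). It shares 84.4% of its windows with transcripts of genes elsewhere, so that the split of its reads among copies is uncertain. Gm42427, with 83.8% of these windows, held at most 1 read in any library. Gm37416, with 11.3%, averaged 1367 FPKM in siSetdb1 and 1997 FPKM in siNC, and Gm46223, with 11.0%, averaged 4.60 FPKM in siSetdb1 and 9.27 FPKM in siNC. How far reads of these copies enter the value of Gm46620 was not tested. Without siSetdb1 replicate 1 or 2 the call of Gm46620 ended (0.0656 and 0.0520).

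Neat1 and Malat1, the RNAs listed for nuclear bodies, did not pass. Neat1, the scaffold of paraspeckles, had 11.4, 9.90 and 6.82 FPKM in siSetdb1 libraries and 12.4, 14.9 and 19.7 FPKM in siNC libraries. Every siSetdb1 library was below every siNC library, but both groups were widely spread, and the log2 fold change of -0.69 (SE 0.21) had an adjusted p of 0.0656. Malat1, which gathers in nuclear speckles, had 62.3, 58.4 and 44.4 FPKM in siSetdb1 libraries and 39.9, 38.1 and 65.4 FPKM in siNC libraries (log2 fold change 0.23, SE 0.22, adjusted p = 0.505). Its groups overlap, with siNC replicate 3 the highest of the 6 libraries. Neat1 and Malat1 lie next to each other on chromosome 19, at 5824708 to 5845478 and at 5795690 to 5802672. Both were measured in RNA selected for poly(A) tails, so that forms of either RNA without a tail are poorly covered by these values.

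Other conserved RNAs also stayed short of the threshold. 2900097C17Rik, the Norad RNA (chromosome 2, 156388065 to 156392979), which is known to bind Pumilio proteins, had 27.3, 27 and 26 FPKM in siSetdb1 libraries and 21.1, 23.1 and 23.4 FPKM in siNC libraries (log2 fold change 0.24, SE 0.07, adjusted p = 0.0527). The groups do not overlap. Of its windows 39.5% also occur in Gm7292, which averaged 0.273 FPKM in siSetdb1 and 0.176 FPKM in siNC. Oip5os1 (Cyrano), known for a site that directs the decay of miR-7, had 12.7, 12.1 and 11.3 FPKM in siSetdb1 libraries and 7.85, 11.5 and 13.5 FPKM in siNC libraries.

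Tug1, a conserved transcript found in nucleus and cytoplasm, had 12, 11.9 and 12.3 FPKM in siSetdb1 libraries and 8.11, 11.5 and 12.3 FPKM in siNC libraries. In Oip5os1 and Tug1 alike siNC replicate 1 was the lowest library, and the adjusted p-values were 0.575 and 0.385. Firre, an X-linked RNA that takes part in nuclear architecture, averaged 5.74 ± 0.97 FPKM in siSetdb1 and 5.32 ± 1.1 FPKM in siNC (SD, n = 3 each), and its groups overlap. Over the 132 RNAs siNC replicate 1 was the lowest library for 35 (26.5%), against 25.9% of all genes tested. The siNC library labelled replicate 3 was the highest library for 35 of the 132 (26.5%), against 15.3% of all genes tested, a difference that was not tested.

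The snoRNA hosts held 1 call in 17 genes (5.88%, against 15.1% of all genes tested), and that difference was not tested. In 17 of the 132 genes GENCODE places a snoRNA or scaRNA gene on the same strand within the span; 0 of them rose and 1, 2410006H16Rik, fell, with a median log2 fold change of 0.11, against -0.02 for all genes tested. Gas5, which carries 10 such genes in its introns and whose spliced RNA is turned over with translation, had 16.7, 18.5 and 18.3 FPKM in siSetdb1 libraries and 13.8, 17.4 and 18.2 FPKM in siNC libraries (log2 fold change 0.12, SE 0.11). Snhg1, with 8 such genes, had 14.2, 17 and 13.4 FPKM in siSetdb1 libraries and 11.3, 13.2 and 16.1 FPKM in siNC libraries. Both overlap between the groups. Zfas1, with 3, averaged 22.7 ± 0.52 FPKM in siSetdb1 and 22.2 ± 1.6 FPKM in siNC.

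Snhg5, host of Snord50a and Snord50b, had 18.1, 20.5 and 19 FPKM in siSetdb1 libraries and 12.9, 19.4 and 20.2 FPKM in siNC libraries, so that a single siNC library, replicate 1, lies below the rest. Of the 17 hosts, 5 had their lowest value in that library. Snhg6, host of Snord87, was the host whose groups were apart with siSetdb1 above, at 16.7 ± 0.65 FPKM in siSetdb1 and 13.9 ± 1.5 FPKM in siNC (adjusted p = 0.0940). Snhg10, host of Scarna13, lay the other way at 3.11 ± 0.52 FPKM in siSetdb1 and 4.20 ± 0.49 FPKM in siNC (adjusted p = 0.0938). Among the rest, 1110038B12Rik, Epb41l4aos, Snhg8, Snhg20 and Rab26os had log2 fold changes of -0.10 to -0.19, and Snhg4, 2700038G22Rik, Dancr, Snhg12 and Snhg15 had 0.11 to 0.27, and 0 of them passed.

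**Figure D3:**
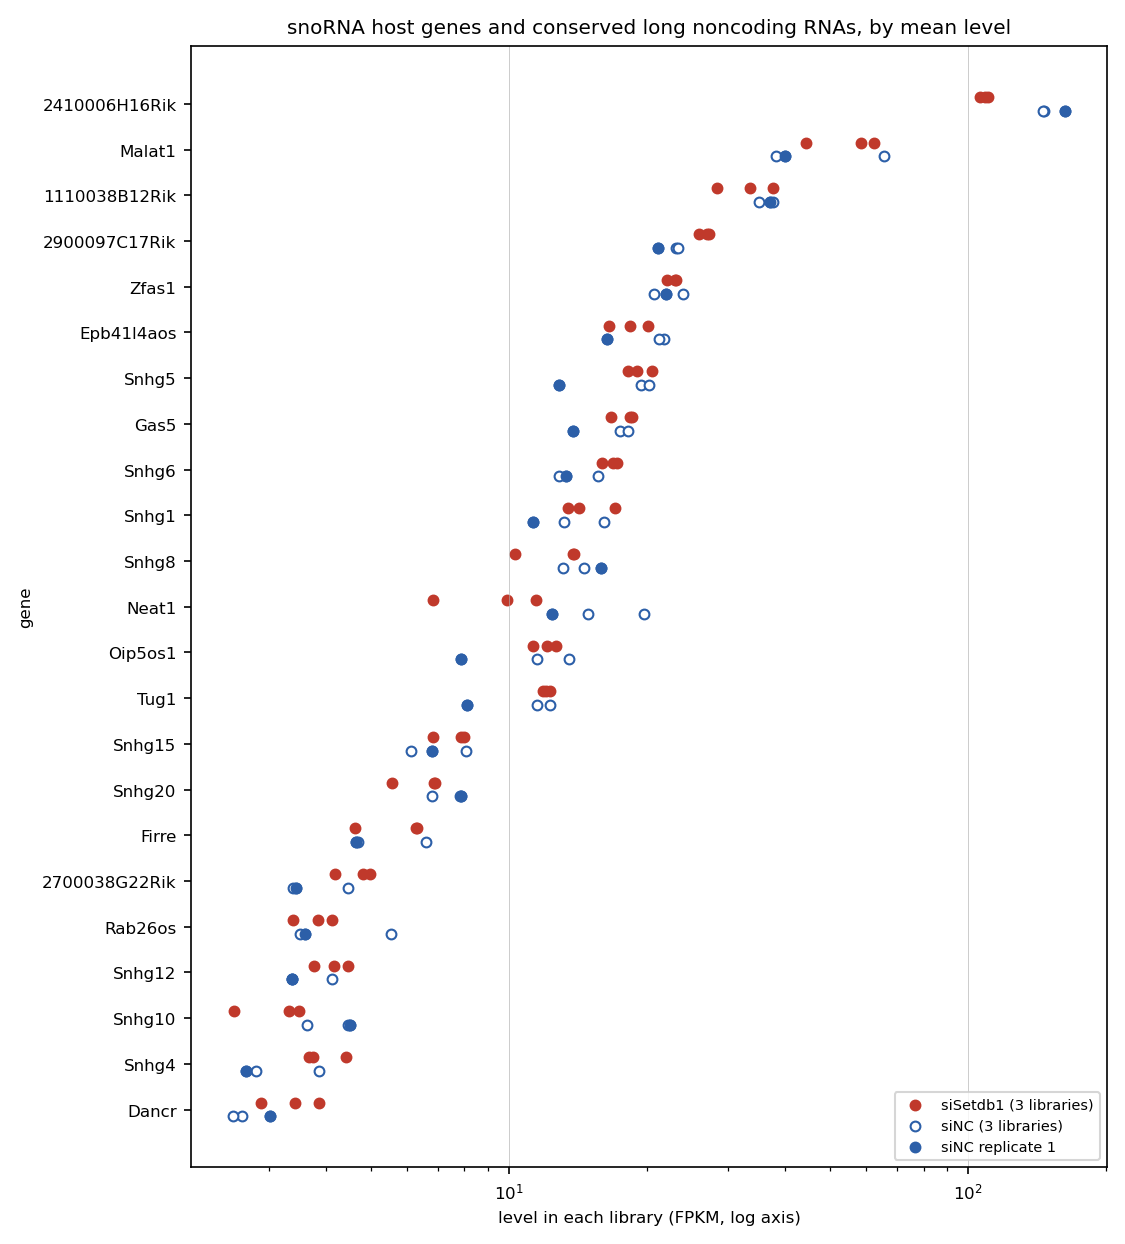
Level in each library (FPKM, log axis) of the 17 long noncoding RNAs that hold a snoRNA or scaRNA gene and of Neat1, Malat1, Tug1, Oip5os1, Firre and 2900097C17Rik (Norad), ordered by mean level; red points are the 3 siSetdb1 libraries, blue points below them the 3 siNC libraries, with replicate 1 filled. The groups of 2410006H16Rik are apart, and replicate 1 of siNC is the lowest point of Snhg5 (12.9 FPKM), Oip5os1 (7.85 FPKM) and Tug1 (8.11 FPKM).

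The hosts of microRNAs comprised 7 of the 132 genes, among which Mir22hg rose and the others did not pass (14.3% passed, against 15.1% of all genes tested). Mir17hg, the precursor of the miR-17 to miR-92 cluster, had 3.65, 4.51 and 4.36 FPKM in siSetdb1 libraries and 2.53, 3.43 and 3.69 FPKM in siNC libraries (log2 fold change 0.30, SE 0.13, adjusted p = 0.143). Its groups overlap through a single pair of libraries, siSetdb1 replicate 1 and siNC replicate 3. Gm49890, which holds Mir31, was at a mean of 8.42 FPKM and had an adjusted p of 0.292.

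Of the 10 most abundant of these RNAs, 2410006H16Rik fell, Lncenc1 and Gm6093 rose, and 7 did not pass, while 15.1% of all genes tested passed. Gm10076 (chromosome 14) is nearly a copy of a ribosomal protein gene: 69.9% of its 50-base windows also occur in transcripts of Rpl41, and RefSeq lists it as a pseudogene. A window found in both genes, at chr14:105681996-105682045 on the plus strand of GRCm38, shows what a read of this length cannot tell apart.
Gm10076: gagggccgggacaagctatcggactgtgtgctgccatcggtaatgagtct

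Gm10076 had 58.5, 65.9 and 79.4 FPKM in siSetdb1 libraries and 101, 85 and 81.4 FPKM in siNC libraries, and its log2 fold change was -0.39 (SE 0.13, adjusted p = 0.0778). Rpl41 averaged 742 ± 110 FPKM in siSetdb1 and 980 ± 134 FPKM in siNC, with a log2 fold change of -0.40 and an adjusted p of 0.0818. Neither passed. Gm49980 on chromosome 18, with 45.0% of its windows elsewhere, averaged 61.1 ± 1.3 FPKM in siSetdb1 and 74.2 ± 8.8 FPKM in siNC (adjusted p = 0.0932). Gm47015, Gm50323 and 4930461G14Rik had log2 fold changes of 0.08, 0.20 and 0.23 and did not pass. Of the 132 RNAs, 67 shared 0 windows with another gene, 19 shared 10% or more, and 9 shared 10% or more with genes elsewhere. Among the 67 without shared windows 6 rose and 6 fell (17.9%, against 15.1% of all genes tested).

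Protein-coding genes next to these RNAs were read from the same fit. Within 5 kb of 83 of the RNAs lay 90 protein-coding genes that were tested, of which 9 rose and 3 fell (13.3%, against 15.1% of all genes tested). The RNA and the gene both passed in 4 pairs, in the same direction in 3. Over the 32 pairs with divergent starts, the fold changes had the same sign in 16, with a Spearman correlation of 0.06 across pairs that share the 6 libraries.

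Gm20544 and Smad7, the inhibitory SMAD that dampens TGF beta signalling, start 441 bases apart on chromosome 18 and are read in opposite directions. Smad7 had 14.3, 14.1 and 16.7 FPKM in siSetdb1 libraries and 7.48, 7.04 and 8.43 FPKM in siNC libraries. The groups are apart in this gene as in Gm20544, and its log2 fold change was 0.89 (SE 0.09, adjusted p = 0.00219), beside 0.79 for the RNA. Bcar3, an adaptor of the focal adhesion protein p130Cas, spans Gm4610 on the opposite strand without shared exon windows. It had 14, 14.3 and 14.1 FPKM in siSetdb1 libraries and 9.31, 8.14 and 7.89 FPKM in siNC libraries (log2 fold change 0.68, SE 0.08, adjusted p = 0.00251).

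Lrrc75a, whose end lies 77 bases from 2410006H16Rik, fell with it, at 2.46 ± 0.14 FPKM in siSetdb1 and 3.45 ± 0.45 FPKM in siNC (log2 fold change -0.36, adjusted p = 0.0447). This call ended when any library but siNC replicate 3 was left out (0.0669 to 0.142). Tlcd2, a gene of membrane lipid composition that overlaps exons of Mir22hg on the same strand, went the other way from the host. It had 25.9, 25.7 and 25.3 FPKM in siSetdb1 libraries and 32.1, 32.4 and 30.2 FPKM in siNC libraries (log2 fold change -0.29, SE 0.06, adjusted p = 0.0236), while 8.43% of the windows of Mir22hg lie in Tlcd2. This call ended when any siSetdb1 library or siNC replicate 2 was left out (0.0762 to 0.0920).

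Next to the other RNAs that passed, the genes within 5 kb did not. Sap30, a subunit of a histone deacetylase complex, starts 194 bases from 2500002B13Rik and averaged 40.4 ± 0.63 FPKM in siSetdb1 and 45.3 ± 5.2 FPKM in siNC (adjusted p = 0.284). Lfng, a glycosyltransferase that modifies Notch, starts 769 bases from Gm43703 and had a log2 fold change of 0.48 (adjusted p = 0.0582). Pik3c2a, a lipid kinase that starts 126 bases from AV356131, had 21.9, 18.4 and 18.7 FPKM in siSetdb1 libraries and 9.75, 20.3 and 20.9 FPKM in siNC libraries, with siNC replicate 1 alone far below. Rab35 beside 1110006O24Rik, Brip1 beside Brip1os, Tbl1xr1 beside Gm43672, Zfp599 beside Gm39307 and Zfp236 beside Gm46620 had log2 fold changes between -0.18 and 0.18.

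The converse was found too, with coding genes that passed beside RNAs that did not. Dagla, which makes the endocannabinoid 2-arachidonoylglycerol, rose to 20.8 ± 1.1 FPKM in siSetdb1, against 12.7 ± 0.53 FPKM in siNC (log2 fold change 0.67, adjusted p = 0.00212), and the overlapping Gm30042 did not pass. Pip5k1b, a phosphoinositide kinase whose start is 480 bases from that of Gm50341, fell to 21.4 ± 1.2 FPKM in siSetdb1, against 28.7 ± 0.78 FPKM in siNC (log2 fold change -0.41, adjusted p = 0.00967). Dagla and Pip5k1b were named after their values were seen.

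**Figure D4:**
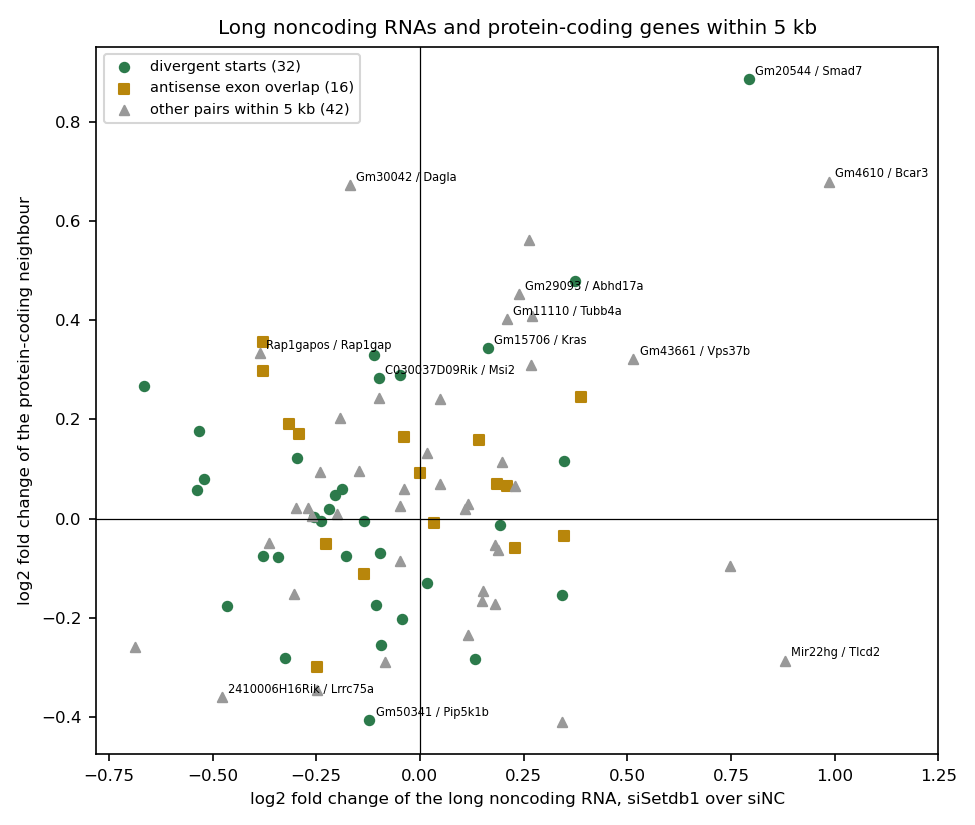
Log2 fold change of a protein-coding gene against that of the long noncoding RNA within 5 kb of it, for 90 pairs, by arrangement; green circles have divergent starts (32), brown squares overlap in exons on opposite strands (16) and grey triangles are other pairs (42). Names mark pairs in which the coding gene passed; Gm20544 with Smad7 and Gm4610 with Bcar3 lie at the upper right, and divergent pairs have the same sign in 16 of 32.

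Genes for the proteins with which these RNAs work can be read against the 15.1% of all genes tested that passed. None of the 12 paraspeckle protein genes and none of the 9 nuclear speckle genes passed by limma (0 in each, with 2 and 1 at an unadjusted p under 0.05). Of 16 genes of nonsense-mediated decay, the pathway that degrades many spliced snoRNA hosts, 0 rose and 2 fell, Smg9 (log2 fold change -0.33, adjusted p = 0.0411) and Rbm8a (-0.25, 0.0428). Of 16 genes for snoRNP proteins and their assembly factors, 0 rose and 2 fell. By limma 7 of these 16 had an unadjusted p under 0.05, against 4141 of the 12846 genes tested. In 8 of them every siSetdb1 library was below every siNC library, and in 0 above. Over all genes tested these shares were 21.6% and 17.6%, and the differences were not tested. Naf1, which assembles box H/ACA particles, averaged 11.8 ± 0.37 FPKM in siSetdb1 and 15.8 ± 1.4 FPKM in siNC (log2 fold change -0.39, adjusted p = 0.0199), and Ruvbl1, an ATPase of the assembly complex, had a log2 fold change of -0.25 (adjusted p = 0.0496). Of 16 nuclear exosome genes, Exosc4 fell (log2 fold change -0.28, adjusted p = 0.0468). Medians over these lists lay between -0.16 and 0.01, against -0.02 for all genes tested, and when any siSetdb1 library or siNC replicate 2 was left out the 5 calls came to 0.

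The genes nearest to the threshold of 3 FPKM show what the rule kept and what it lost. Gm43661, Gm45494 and Gm44658 were just inside, with means of 3.00, 3.00 and 3.01 FPKM, and Gm30262, Gm15344 and Gm19610 just outside, with 2.97, 2.97 and 2.98 FPKM. Gm43661 averaged 3.68 ± 0.31 FPKM in siSetdb1 and 2.32 ± 0.70 FPKM in siNC. Gm30262 had 3.59, 4.22 and 4.47 FPKM in siSetdb1 libraries and 1.2, 1.89 and 2.43 FPKM in siNC libraries.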

How the data were processed

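Polyadenylated RNA of 3 siSetdb1 and 3 siNC samples was read as single-end reads of 50 bases, per the labels' protocols, which name no step that marks strand. RSEM 1.2.12, HISAT2 2.0.4, DESeq2 1.4.5, Bowtie2 2.2.5 and the build mm10 appear without role or order in the submitters' processing notes. The authors deposited 1 value per gene and sample, which the values themselves show to be FPKM (reads scaled by exon length and sample total before deposit), although the headers name no unit. With GENCODE M21 exon lengths they came out as whole reads (tolerance 0.01) for 98.8% of genes and for 128 of the 132 RNAs, and these recovered reads give the depths. FPKM depends on the total of a sample and on how reads that fit several genes were treated, which is not given in the sources used here.

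Groups were taken from sample titles. Genes with 0.5 FPKM or more in at least 3 samples were tested on log2(FPKM + 1) with limma 3.58.1 (trend and robust, R 4.3.3, two-sided), with group as the only term, and p-values were adjusted by Benjamini-Hochberg over the 12846 genes tested, with a threshold of 0.05. In simulated reads with 200 changed genes in each of 5 runs of this comparison (median 12597 genes tested), 58.0% of 1.5-fold, 92.4% of 2-fold and 97.6% of 4-fold rises and 84.8% of falls to 0.5-fold were found, and 9.27% of calls were false, above the nominal share. The simulation gave all genes the same added spread between replicates and set no library apart. It also changed fewer genes than passed here. Its rates may therefore not hold for these libraries or these RNAs. Replicate libraries differed by more than read sampling (4.68 to 24.0 chi-square units per degree of freedom), so none was counted as a copy. The highest values, 22.5 and 24.0, belong to siNC replicate 1 against siNC replicates 2 and 3, which gave 5.62 against each other.

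The members and lists were chosen with earlier results of these data known. Named RNAs are, among those that passed, the 10 highest and 10 lowest by log2 fold change, the 10 most abundant, those in lists of nuclear, snoRNA host, microRNA host, X-linked, p53-linked and other conserved RNAs, those holding a snoRNA gene, 3 on each side of the threshold, and coding genes within 5 kb of the first set. From each protein list the highest and lowest called genes are named. No p53-linked RNA was a member, so that list gave 0 named RNAs. Alternatives were a pseudocount of 0.1, no filter, median-ratio scaling, limma-voom on recovered reads, a variance trend on reads, the replicate number as a block, and leaving out each library.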

Additional observations from a re-analysis of the deposited data

How the results depend on the processing

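Of the 24 RNAs that passed, 12 passed under each of the 12 alternatives (9 higher and 3 lower), and 0 changed direction. Without the filter 16 RNAs passed (11 higher, 5 lower), 890 of all genes (460 higher, 430 lower), 4 neighbours (3 higher, 1 lower) and 0 listed genes. Median-ratio scaling gave 1019 higher and 907 lower genes, 17 higher and 10 lower RNAs and 2 listed genes, limma-voom 14 higher neighbours and 2 listed genes, and the variance trend on reads 6 lower neighbours. The replicate numbers do not pair the samples (correlations of same-numbered deviations -0.16, 0.17 and -0.17); with them as a replicate block 1015 genes (480 higher, 535 lower), 18 RNAs (10 higher, 8 lower), 4 neighbours (3 higher, 1 lower) and 1 listed gene passed. Not every sample correlated best with its own number. Leaving out 1 library gave 683 to 2176 genes (355 to 1101 higher, 326 to 1075 lower), 13 to 25 RNAs (9 to 16 higher, 4 to 9 lower), 4 to 18 neighbours (3 to 13 higher, 1 to 5 lower) and 0 to 7 listed genes (0 higher, 0 to 7 lower). Without siNC replicate 1, 2176 of all genes passed (1945 with all libraries), 18 neighbours (12) and 7 listed genes (5). Leaving out any other library gave fewer calls in each of these sets. The cause was not tested, except that leaving out a library leaves fewer samples and dropping the filter tests more genes. Among genes that did not pass, direction turned in leave-one-out fits for Brip1 (log2 fold changes -0.24 to 0.040, with 0.017 without siSetdb1 replicate 3), Gas5 (-0.000500 to 0.19), Gm45494 (-0.29 to 0.017), Oip5os1 (-0.052 to 0.31), Pik3c2a (-0.067 to 0.45), Rab26os (-0.20 to 0.068), Snhg5 (-0.040 to 0.26) and Zfas1 (-0.012 to 0.087). Depth was lowest for Gm39380, with 6 to 18 reads per library. At mean levels of 3 to 5 FPKM 8 of 54 RNAs passed, and at 5 to 10 FPKM 8 of 40. At 10 to 30 FPKM 5 of 27 passed, and at 30 FPKM or more 3 of 11. Over all genes tested 15.1% passed, and differences between these bands were not tested.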

Other observations

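Genes within 200 kb of the RNAs that passed were looked at after the values had been seen, and are given as values only. Distances run between the nearest ends of the annotated spans, not between starts. The 24 RNAs make 91 pairs with tested protein-coding genes at this distance, in which the coding gene passed in 19 (20.9%, against 15.1% of all genes tested; 10 higher and 9 lower, 11 in the direction of the RNA). The pairs named here follow no rule set beforehand and are only a part of the 19. Near Mir22hg, which rose, Slc43a2, Rpa1 and Rtn4rl1 passed as lower, with log2 fold changes of -0.40, -0.39 and -0.94. Their calls held in 5, 8 and 12 of 12 alternative settings. Morrbid, which rose, lies 15.8 kb from Bcl2l11, the gene for the pro-apoptotic protein BIM. Bcl2l11 fell to 5.23 ± 0.39 FPKM in siSetdb1, against 7.78 ± 0.77 FPKM in siNC (SD, n = 3 each, log2 fold change -0.49, adjusted p = 0.0134, limma). Gm47507 lies 16.7 kb from the zinc finger transcription factor gene Klf6, which had 111.8, 119.1 and 102.2 FPKM in siSetdb1 libraries and 53.7, 62.6 and 69.0 FPKM in siNC libraries (log2 fold change 0.84). Mirt1 lies 64.3 kb from Dusp5, the ERK phosphatase gene, with 26.8, 31.6 and 41.5 FPKM in siSetdb1 libraries and 9.37, 8.92 and 10.7 FPKM in siNC libraries (log2 fold change 1.67).

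Lncenc1, which rose, lies 181.9 kb from Enc1, a gene for an actin-binding kelch protein, and Enc1 rose to 24.6 ± 1.7 FPKM in siSetdb1, against 13.9 ± 0.90 FPKM in siNC (log2 fold change 0.78). Galnt7, which starts mucin-type O-glycans on proteins, lies 15 kb from 2500002B13Rik and rose to 10.3 ± 0.70 FPKM in siSetdb1, against 4.41 ± 0.98 FPKM in siNC (log2 fold change 1.07). Gm39307 fell, and Zfp809, a mouse zinc finger protein that recruits TRIM28 and SETDB1 to retroviral sequence, lies 16.7 kb from it and rose to 10.5 ± 1.3 FPKM in siSetdb1, against 6.43 ± 1.2 FPKM in siNC (log2 fold change 0.64, adjusted p = 0.0259, past the test in 8 of 12 alternative settings). Whether distance bears on any of these pairs was not tested.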
